A study of Rattus norvegicus with 12 samples.

Results

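The 10 genes described here encode chaperones and folding enzymes of the endoplasmic reticulum (ER) together with the transcription factor Xbp1 and genes known as its targets. They are Hspa5, Hsp90b1, Hyou1, Dnajb9, Sdf2l1, Manf, Pdia4, Pdia6, Creld2 and Xbp1. They were taken by gene symbol, and all 10 were found among the 18469 genes of the deposited tables. The cells were neonatal rat ventricular myocytes (NRVMs), the contracting heart muscle cells of newborn Sprague-Dawley rats in short-term culture. Cells of all groups were transfected with an siRNA, by their labels either the negative control siNeg or siSlc25a26, named for the mitochondrial carrier gene Slc25a26. One group of each siRNA received no further treatment. The other group of each was given phenylephrine (PE), which stimulates α-adrenergic receptors and induces hypertrophic growth of cardiomyocytes. By the labels, PE was added 12 h after transfection and was present for 36 h. This gave 4 groups of 3 libraries, siNeg, siNeg.PE, siSlc25a26 and siSlc25a26.PE, or 12 libraries in all. No group was left without transfection, and a single siRNA is named for Slc25a26, so a change with that siRNA cannot be told apart from other actions of the same siRNA.

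The ER is where secreted and membrane proteins are folded. Its chaperones bind unfolded chains, and its disulfide isomerases form and rearrange their disulfide bonds. When unfolded proteins build up, 3 sensors in the ER membrane start the unfolded protein response (UPR). Activated IRE1 splices the Xbp1 mRNA so that it encodes an active transcription factor. ATF6 is cut to release a transcription factor of its own, and PERK slows translation while favouring ATF4. The spliced XBP1 protein and ATF6 raise the genes of chaperones and of ER-associated degradation, partly through a promoter element called the ER stress response element (ERSE). In cardiomyocytes the response is known from pressure overload, ischaemia and hypertrophy, which all load the folding machinery. Read counts per gene do not separate spliced from unspliced Xbp1 mRNA.

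Total counts were 24770972 to 28709049 per library, and the 10 genes took 0.281% to 0.360% of them. The lowest count of any of the 10 genes in any library was 558, so none was near the detection limit. The values of Pdia6 in 11 of 12 libraries and of Manf in 12 of 12 were not whole numbers, which marks genes whose reads were shared with other loci, and their levels are less certain. The other 8 genes had whole counts in all 12 libraries. The targeted gene Slc25a26 was lower with its siRNA in untreated cells, at 33.2, 31.6 and 29.3 counts per 1e6 (CPM) in siNeg and 15.8, 14.9 and 14.7 CPM in siSlc25a26. After PE it was not, with 113, 106 and 86.2 CPM in siNeg.PE and 102, 106 and 98.8 CPM in those labelled siSlc25a26.PE. The log2 difference under PE was -0.0062 (95% interval -0.24 to 0.22), so the label of the siSlc25a26.PE libraries is not borne out by the level of the targeted gene. Slc25a26 also had counts that were not whole, from 422.42 to 464.44 in siSlc25a26 and from 2555.97 to 2670.55 in siSlc25a26.PE. Its level is therefore less certain too. The paper that reported these data describes an siRNA against another gene, Nap1l5, and other times of PE treatment, whereas the labels name siSlc25a26. Nap1l5 had 2.54, 3.47 and 4.72 CPM in siNeg, 1.40, 1.95 and 2.74 in siSlc25a26, 13.5, 15.9 and 19.4 in siNeg.PE and 8.78, 8.18 and 6.76 in siSlc25a26.PE. It was lower in the libraries labelled siSlc25a26 without PE (-0.84 ± 0.29, log2; adjusted p = 0.0397), where single libraries overlapped, and under PE (-1.05 ± 0.15; adjusted p = 0.000636), where they did not. Which of these siRNAs the libraries received cannot be told from the sources used here, so every result with siSlc25a26 is given by its label. Nppa and Nppb, natriuretic peptide genes that rise in hypertrophy, were 24.7-fold and 41.3-fold higher with PE in siNeg cells. In the libraries labelled siSlc25a26 they were 2.21-fold and 3.91-fold higher than in siNeg without PE (edgeR, adjusted p = 0.000562 and 8.73e-05). Under PE they were 2.03-fold and 3.76-fold higher (adjusted p = 0.000259 and 0.000493). The paper reports that its siRNA against Nap1l5 suppressed both genes.

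The cultures held other cells beside cardiomyocytes. All 10 cardiomyocyte markers were expressed, among them Tnnt2 at 4028 FPKM (mapped fragments scaled by transcript length and library size) or more. The summed level of 10 fibroblast markers was 25086 to 27856 CPM in siNeg, 13356 to 13941 in siNeg.PE, 14653 to 16644 in siSlc25a26 and 10427 to 11537 in the libraries labelled siSlc25a26.PE. These 4 ranges do not overlap. Matrix genes weigh most in this sum, as Col1a1 had a mean of 13318 of 26195 CPM in siNeg. The 10 markers did not move as 1. With PE in siNeg 2 rose and 6 fell at an adjusted p under 0.05 in edgeR (20% and 60%, beside 25.2% and 24.3% of all genes). Mean levels there went from 102 to 124 CPM for Dcn and from 13318 to 6994 CPM for Col1a1. The summed level of 7 smooth muscle and mural markers was 3427 to 3705 CPM in siNeg and 1770 to 2213 CPM over the other 3 groups. Acta2 and Tagln, at means of 1702 and 1092 CPM in siNeg, weigh most in it. Of the 7, 2 rose and 4 fell with PE in siNeg, and 3 rose and 1 fell in siSlc25a26 (42.9% and 14.3%, beside 26.4% and 26% of all genes). Cnn1 had means of 40.5 CPM in siNeg, 122 in siNeg.PE, 18.1 in siSlc25a26 and 184 in siSlc25a26.PE. The endothelial markers Pecam1, Cdh5, Tie1, Emcn and Vwf and the immune markers Ptprc and C1qb were at or below 0.49 FPKM in every library. Other endothelial markers were higher, with Tek at 2.54 to 4.4, Egfl7 at 1.53 to 2.19 and Kdr at 0.87 to 2.38 FPKM. The immune marker Lyz2 lay between 20.5 and 87.0 FPKM, Cd68 between 5.15 and 15.7 and Cd14 between 1.93 and 3.4. C1qa, Csf1r, Aif1, Itgam and Adgre1 reached at most 2.81, 2.1, 3.27, 1.54 and 0.72 FPKM. In bulk RNA, fewer cells of a type and less RNA per cell cannot be told apart. These marker levels moved with both PE and the siRNA, and their part in the results on the 10 genes was not tested.

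The promoters of the 10 genes carry the sequence through which ATF6 and XBP1 are known to act in some of them and not in others. RefSeq promoters of assembly GRCr8 (250 bases before to 50 after the transcription start) were available for 8 of the 10 genes, all but Pdia6 and Manf. They were searched on both strands for the ERSE (CCAAT, any 9 bases, CCACG), for the related ERSE-II (ATTGG, any 1 base, CCACG) and for TGACGTG, the core of a site bound by ATF6 and XBP1. The ERSE was found in 4 of the 8 genes and in 22 of 33469 rat promoters (0.0657%). The ERSE-II was found in 1 of the 8 and in 17 of 33469 (0.0508%), and TGACGTG in 2 of the 8 and in 605 of 33469 (1.81%). A match describes the letters in these windows and is no evidence of binding. The ERSE and ERSE-II matches are shown with 20 bases on each side, because some of the members hold them and others do not. Capitals mark the ends of each motif, the sequence runs 5′ to 3′ along the gene's strand, and positions count from the transcription start.
Hspa5 ERSE, chr3:38452953-38453011, + strand, positions -43 to -25: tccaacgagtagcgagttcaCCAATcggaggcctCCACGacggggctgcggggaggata
Hsp90b1 ERSE, chr7:23012431-23012489, - strand, positions -176 to -158: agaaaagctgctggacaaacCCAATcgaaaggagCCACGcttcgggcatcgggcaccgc
Hsp90b1 ERSE on the opposite strand, chr7:23012327-23012385, - strand, positions -72 to -54: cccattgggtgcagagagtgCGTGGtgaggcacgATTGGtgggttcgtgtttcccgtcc
Xbp1 ERSE, chr14:84604538-84604596, + strand, positions -65 to -47: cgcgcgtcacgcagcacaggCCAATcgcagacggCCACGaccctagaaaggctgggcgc
Creld2 ERSE on the opposite strand, chr7:121789219-121789277, + strand, positions -145 to -127: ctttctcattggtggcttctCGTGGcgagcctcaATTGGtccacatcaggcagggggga
Hyou1 ERSE-II on the opposite strand, chr8:53602674-53602724, + strand, positions -188 to -178: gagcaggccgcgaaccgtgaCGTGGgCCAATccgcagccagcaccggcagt
Hyou1 ERSE-II on the opposite strand, chr8:53602774-53602824, + strand, positions -88 to -78: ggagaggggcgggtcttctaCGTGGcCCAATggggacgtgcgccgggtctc
Hyou1 has 2 listed starts, and both its matches belong to the first. TGACGTG lies in the Hspa5 promoter at positions -135 to -129 and in that of Hyou1 at -191 to -185, where it overlaps the first ERSE-II. None of the 3 motifs was in the windows of Pdia4, Dnajb9 or Sdf2l1.

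Per length, Hspa5 was the most abundant of the 10 mRNAs in all 4 groups and Dnajb9 the least. In siNeg, Hspa5 had 311, 308.5 and 319.5 FPKM and Dnajb9 11.2, 13.6 and 15.2 FPKM. Pdia6 followed Hspa5 at 269 ± 2.78 FPKM (mean ± SD, n = 3) and Manf at 231 ± 13.4. Hsp90b1 (144 ± 14.4), Pdia4 (123 ± 9.21) and Xbp1 (119 ± 1.85) came next, and each overlapped its neighbour in this order. Hyou1 stood at 110.0 ± 6.31 FPKM, Sdf2l1 at 40.1 ± 5.63 and Creld2 at 26.6 ± 0.791, with no overlap between neighbours. The order was mostly kept in the other groups. With siSlc25a26 the gap between Hspa5 (475 ± 9.81) and Pdia6 (270.4 ± 4.77 FPKM) widened. With PE, Hsp90b1 came level with Manf, at 210.5 ± 26.2 and 221 ± 6.30 FPKM in siNeg.PE.

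**Figure D1:**
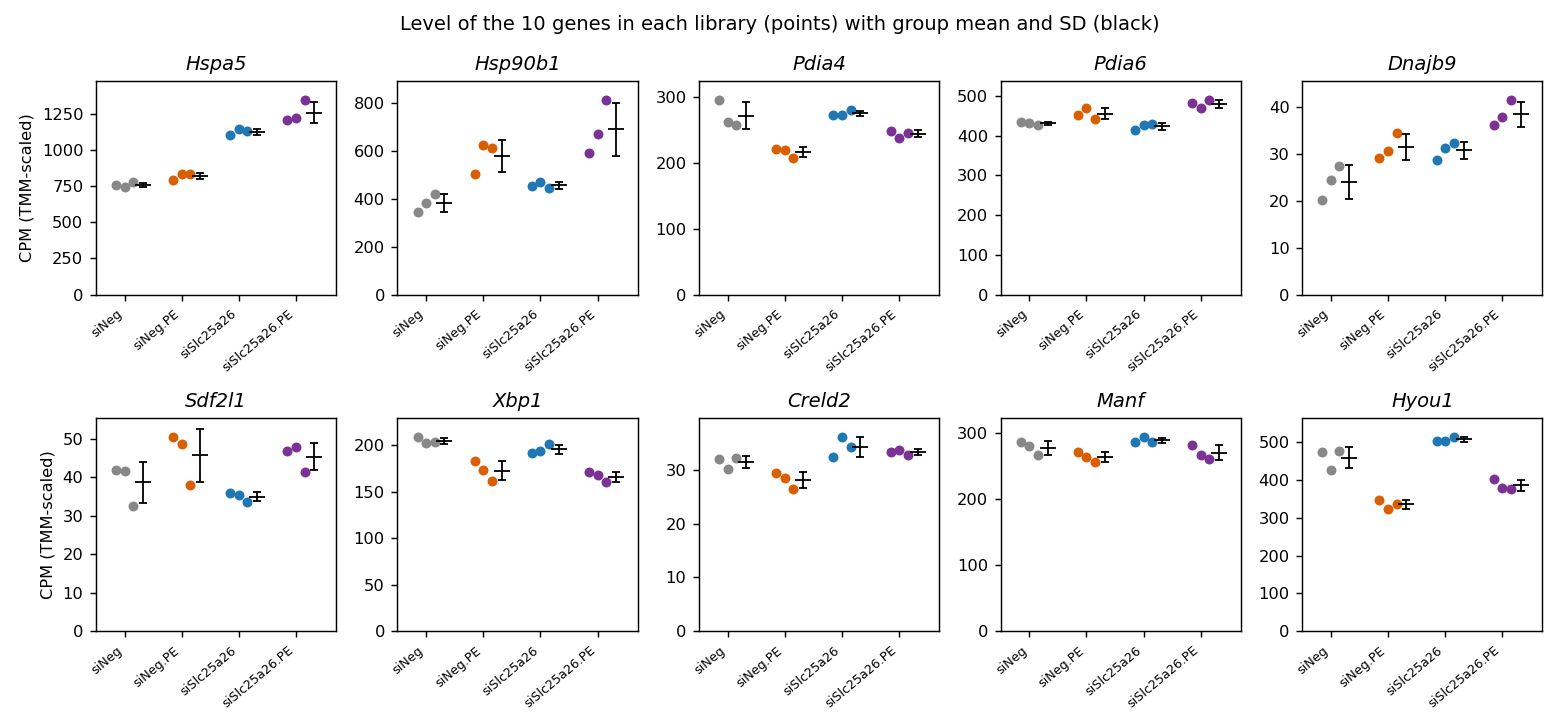
Levels of the 10 genes in each of the 12 libraries, in TMM-scaled counts per 1e6 (CPM, vertical axis from 0), by group. Points are libraries and black marks are group means with SD (n = 3). Hspa5 is at 745 to 775 CPM in siNeg and at 1104 to 1146 CPM in siSlc25a26, while Hyou1 falls from 427 to 476 CPM in siNeg to 324 to 346 CPM in siNeg.PE.

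Each comparison was fitted in edgeR (quasi-likelihood test, Benjamini-Hochberg adjustment) over all expressed genes. A gene is said to have risen or fallen at an adjusted p under 0.05 and is called where the fold change is also above 1.5. In siNeg cells, PE raised 2 of the 10 genes, Hsp90b1 and Dnajb9, and lowered 3, Hyou1, Pdia4 and Xbp1. Of the 13719 genes tested in this comparison, 25.2% rose and 24.3% fell, beside 2 and 3 of the 10. Hsp90b1 was called higher and none was called lower, against 12.4% and 8.24% of all genes. The median log2 change of the 10 genes was -0.0081 and that of all genes 0.00016. In cells with siSlc25a26, the libraries labelled siSlc25a26.PE were higher for 5 genes, Hsp90b1, Sdf2l1, Dnajb9, Pdia6 and Hspa5, and lower for the 3 genes that also fell in siNeg. Of 13776 genes, 26.4% rose and 26% fell. Hsp90b1 was again the 1 gene called higher and none was called lower, against 10.1% and 10.4% of all genes. The median was 0.069 against -0.0036 for all genes. On the FPKM scale (limma on log2(FPKM + 1)), 2 of the 10 rose and 5 fell with PE in siSlc25a26. There the median of all genes was -0.13. With PE in siNeg 1 rose and 4 fell on that scale. The 2 that rose in siNeg became 1 without siNeg replicate 1 or 2 or siNeg.PE replicate 2 or 3.

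In untreated cells, siSlc25a26 raised 3 of the 10 genes, Hspa5, Dnajb9 and Hsp90b1, and lowered none, while 23.3% of 13829 genes rose and 21.7% fell. None of the 10 was called in either direction, against 8.92% higher and 7.2% lower among all genes. The rise of Hspa5 was 1.46-fold, just under the 1.5-fold limit. Under PE, the libraries labelled siSlc25a26.PE were higher than siNeg.PE for 5 genes, Hspa5, Dnajb9, Creld2, Hyou1 and Pdia4, and lower for none, against 20.1% of 13671 genes in each direction. Hspa5 was called higher, and none was called lower, against 7.71% and 8.1% of all genes. The 5 genes that rose under PE became 1 without siNeg.PE replicate 2 or siSlc25a26.PE replicate 2, and 2 on the FPKM scale. The 3 that rose without PE became 1 without siNeg replicate 1 or 2 or siSlc25a26 replicate 2, and 4 on the FPKM scale. The medians of the 10 genes were 0.065 without PE and 0.18 under PE, beside 0.015 and -0.0028 for all genes. The 4 comparisons share groups in pairs and are not independent of each other. Groups of 3 libraries did not overlap for 8, 9, 7 and 6 of the 10 genes in the 4 comparisons in this order, beside 58.6%, 61%, 56.9% and 52% of all tested genes.

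**Figure D2:**
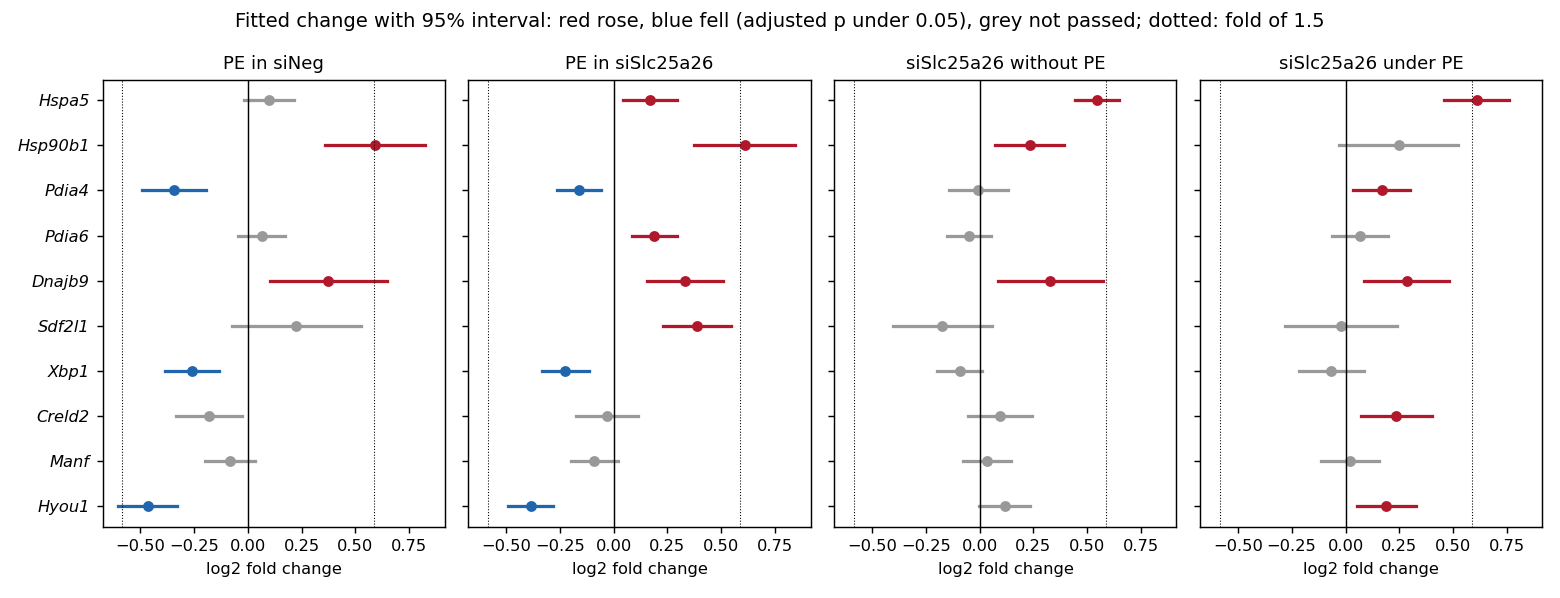
Fitted log2 fold changes (points) with 95% intervals (lines) of the 10 genes in the 4 comparisons. Red genes rose and blue genes fell at an adjusted p under 0.05, grey genes did not pass, and dotted lines mark a fold of 1.5. Under PE treatment Hsp90b1 is at 0.59 and 0.61 and Hyou1 at -0.46 and -0.38, whereas Hspa5 stands apart with siSlc25a26 at 0.54 and 0.61. On the FPKM scale the red points of Hspa5, Pdia6 and Dnajb9 with PE in siSlc25a26 turn to -0.0075, 0.014 and 0.15. None of these passes there, while Creld2 and Manf fall.

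Hspa5 encodes BiP, the HSP70 chaperone of the ER, which also holds the UPR sensors inactive. Its level was 755, 745 and 775 CPM in siNeg and 1104, 1146 and 1128 CPM in siSlc25a26. Under PE it was 795, 831 and 830 CPM in siNeg.PE and 1206, 1223 and 1341 CPM in those labelled siSlc25a26.PE. All 6 libraries with siSlc25a26 lay above all 6 with siNeg, and the spread within groups was small beside this gap. The rise was 0.54 ± 0.045 (log2, SE; 95% interval 0.44 to 0.65; adjusted p = 2.27e-05) without PE and 0.61 ± 0.067 (0.46 to 0.76; adjusted p = 0.000167) under PE. Without any 1 library it stayed between 0.52 and 0.56, and between 0.57 and 0.64, with an adjusted p of at most 0.00203. The fold of 1.53 under PE no longer passed 1.5 without siSlc25a26.PE replicate 3, where the log2 change was 0.57, or on the FPKM scale, where it was 0.54.

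With PE in siNeg cells the change of Hspa5 was 0.098 (log2; 95% interval -0.017 to 0.21; adjusted p = 0.138). With siSlc25a26 it rose by 0.17 ± 0.056 on the log2 scale (adjusted p = 0.0305), but on the FPKM scale the change was -0.0075, or 0.12 above the median of all genes. That rise also lost its call without 5 of the 6 libraries in turn (each but siSlc25a26.PE replicate 1), with an adjusted p of up to 0.104.

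Hsp90b1 encodes the ER member of the HSP90 family, which folds a set of client proteins such as integrins and toll-like receptors. It had 344, 383 and 421 CPM in siNeg and 505, 625 and 611 CPM in siNeg.PE. It had 455, 472 and 444 CPM in siSlc25a26 and 592, 671 and 812 CPM in those labelled siSlc25a26.PE. Every library with PE was above every library without it, although the spread within the PE groups was wide. The rise with PE was 0.59 ± 0.10 (log2; adjusted p = 0.00207) in siNeg and 0.61 ± 0.10 (adjusted p = 0.00111) in siSlc25a26. These are folds of 1.51 and 1.52, at the edge of the 1.5-fold limit. The first was below that limit without siNeg replicate 1, siNeg.PE replicate 2 or siNeg.PE replicate 3 (log2 change down to 0.53), and the second without siSlc25a26.PE replicate 3 (0.47), while the adjusted p stayed under 0.05 in each case. The second was 0.42 on the FPKM scale, or 0.54 relative to the median of all genes. With siSlc25a26 in untreated cells Hsp90b1 rose by 0.23 ± 0.070 on the log2 scale (adjusted p = 0.0247), a call that was lost without siNeg replicate 1 or 2 or without siSlc25a26 replicate 1 or 2 (adjusted p up to 0.0865). Under PE the difference of 0.25 (95% interval -0.031 to 0.52; adjusted p = 0.142) did not pass. Without 1 library it ran from 0.12 to 0.35 and passed without siSlc25a26.PE replicate 1 (adjusted p = 0.0431).

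Hyou1 encodes a large HSP70-like protein that acts as nucleotide exchange factor for BiP. It had 472, 427 and 476 CPM in siNeg and 346, 324 and 336 CPM in siNeg.PE. It had 503, 503 and 512 CPM in siSlc25a26 and 401, 378 and 376 CPM in those labelled siSlc25a26.PE. All PE libraries were below all untreated ones, in the opposite direction to Hsp90b1. The change with PE was -0.46 ± 0.060 (log2; adjusted p = 0.000568) in siNeg and -0.38 ± 0.046 (adjusted p = 0.000143) in siSlc25a26, and it passed without any 1 library. Hyou1 was 0.19 ± 0.060 higher (log2; adjusted p = 0.0319) in siSlc25a26.PE than in siNeg.PE, which did not hold without siNeg.PE replicate 2 or 3 or siSlc25a26.PE replicate 1 or 2 (adjusted p up to 0.138), or on the FPKM scale (0.12; adjusted p = 0.0812).

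Dnajb9, a J-domain partner of BiP that also restrains IRE1, was per length the least abundant of the 10 genes. Its levels were 20.2, 24.5 and 27.4 CPM in siNeg, 29.2, 30.6 and 34.5 in siNeg.PE, and 28.7, 31.3 and 32.3 in siSlc25a26. The libraries labelled siSlc25a26.PE held 36.1, 37.9 and 41.4 CPM, above all others, and the untreated siNeg libraries were below all others. Dnajb9 rose in each of the 4 comparisons, by 0.38 ± 0.12 (log2; adjusted p = 0.0298) and 0.33 ± 0.078 (adjusted p = 0.00629) with PE and by 0.33 ± 0.11 (adjusted p = 0.0350) and 0.28 ± 0.086 (adjusted p = 0.0281) with siSlc25a26. The rise with PE in siSlc25a26 passed without any 1 library, but on the FPKM scale it was 0.15 (adjusted p = 0.113), or 0.27 relative to the median of all genes. The other 3 each lost their call in 4 of the 6 cases. These were siNeg replicate 1 or 2 or siNeg.PE replicate 2 or 3 for PE in siNeg (adjusted p up to 0.0895), siNeg replicate 1 or 2 or siSlc25a26 replicate 2 or 3 for the siRNA without PE (up to 0.102), and siNeg.PE replicate 1 or 2 or siSlc25a26.PE replicate 2 or 3 under PE (up to 0.103). On the FPKM scale these rises were, in the same order, 0.32, 0.37 and 0.20 (limma, adjusted p = 0.0503, 0.0198 and 0.105).

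Sdf2l1 and Manf work with BiP in other ways, Sdf2l1 in its complex with J-domain proteins and Manf as a secreted factor that stabilises BiP bound to its clients. Sdf2l1 ranged from 32.5 to 41.8 CPM in siNeg, 37.9 to 50.4 in siNeg.PE, 33.6 to 35.9 in siSlc25a26 and 41.3 to 47.9 in the libraries labelled siSlc25a26.PE. Replicate 3 was the lowest library of its group in all 4 groups. Sdf2l1 rose with PE in siSlc25a26 by 0.39 ± 0.070 (log2; adjusted p = 0.00157). On the FPKM scale this rise was 0.20 (adjusted p = 0.0243), or 0.33 relative to the median of all genes. In siNeg the change with PE was 0.23 (95% interval -0.072 to 0.52; adjusted p = 0.180). It passed with the replicate number as a block (adjusted p = 0.00255), though same-numbered libraries were not shown to be paired. With siSlc25a26 in untreated cells Sdf2l1 changed by -0.17 (adjusted p = 0.193), which passed at -0.31 (adjusted p = 0.00264) without siNeg replicate 3. Manf ranged from 256 to 293 CPM over the 12 libraries and passed in none of the 4 comparisons in edgeR, with 95% intervals that lay within -0.20 and 0.16 on the log2 scale. On the FPKM scale Manf fell by 0.23 and Creld2 by 0.20 (limma, adjusted p = 0.00536 and 0.0146) with PE in siSlc25a26, where the median of all genes shifted by -0.13.

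The disulfide isomerases Pdia4 and Pdia6 differed from each other. Pdia4 had 294, 262 and 256 CPM in siNeg, 220, 220 and 207 in siNeg.PE, 272, 272 and 279 in siSlc25a26 and 248, 238 and 245 in the libraries labelled siSlc25a26.PE. All PE libraries were below all untreated ones. Pdia4 fell with PE by 0.34 on the log2 scale (SE 0.065, adjusted p = 0.00342) in siNeg and by 0.16 (SE 0.045, adjusted p = 0.0146) in siSlc25a26, the second lost without siSlc25a26.PE replicate 2 (adjusted p = 0.0884). The second was -0.33 on the FPKM scale (adjusted p = 0.000195), or -0.21 relative to the median of all genes, beside -0.38 in siNeg. It was 0.17 ± 0.058 higher in siSlc25a26.PE than in siNeg.PE (adjusted p = 0.0478), a call lost whenever any of the 6 libraries was left out (adjusted p from 0.0607 to 0.124). Without PE the change with the siRNA was -0.0062 (95% interval -0.14 to 0.13). Pdia6 ranged from 414 to 434 CPM without PE and from 443 to 489 CPM with PE. It rose with PE in siSlc25a26 by 0.19 ± 0.046 (log2; adjusted p = 0.00732). On the FPKM scale this rise was 0.014 (adjusted p = 0.790), or 0.14 relative to the median of all genes. In siNeg the change with PE was 0.065 (95% interval -0.043 to 0.17; adjusted p = 0.278).

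Xbp1, the transcription factor of the group, had 208, 202 and 203 CPM in siNeg and 183, 173 and 162 CPM in siNeg.PE. It had 191, 193 and 201 CPM in siSlc25a26 and 171, 167 and 160 CPM in those labelled siSlc25a26.PE. All PE libraries were below all untreated ones, and the libraries of the siRNAs lay close together. Xbp1 mRNA fell with PE by 0.26 on the log2 scale (SE 0.054, adjusted p = 0.00532) in siNeg and by 0.22 (SE 0.048, adjusted p = 0.00392) in siSlc25a26, and these calls held without any 1 library. The change in siSlc25a26 was -0.39 on the FPKM scale (adjusted p = 0.000107), or -0.27 relative to the median of all genes. With siSlc25a26 the changes were -0.093 (95% interval -0.20 to 0.012) without PE and -0.065 (-0.22 to 0.086) under PE. Creld2, a secretory pathway protein with EGF-like domains that is known as an ER stress gene, ranged from 26.4 to 36.1 CPM. It was 0.24 ± 0.072 higher (log2; adjusted p = 0.0291) in the libraries labelled siSlc25a26.PE than in siNeg.PE, which did not hold without siNeg.PE replicate 2 or 3 or siSlc25a26.PE replicate 1 or 2 (adjusted p up to 0.0972). With PE in siNeg it changed by -0.18 ± 0.067 (adjusted p = 0.0539).

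Whether PE acted differently in cells with siSlc25a26 was tested by the difference between the PE effects over all 12 libraries. None of the 10 genes passed, while 5.48% of 14097 genes were higher and 5.73% lower, and 2.16% and 3.34% were called. None had an unadjusted p under 0.05 in edgeR, and DESeq2 and limma-voom also passed 0 of the 10. The fitted differences lay between -0.063 (Dnajb9) and 0.16 (Pdia4) on the log2 scale. The 95% interval was -0.11 to 0.20 for Hspa5, -0.10 to 0.22 for Hyou1 and -0.15 to 0.17 for Xbp1. It was -0.35 to 0.34 for Hsp90b1 and -0.22 to 0.49 for Sdf2l1, which were wider.

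Hspa5, Hsp90b1, Xbp1 and Creld2 carry the ERSE shown with their sequences. With PE in siNeg their log2 changes were 0.098, 0.59, -0.26 and -0.18, of which Hsp90b1 rose, Xbp1 fell and the other 2 did not pass. With siSlc25a26 in untreated cells they were 0.54, 0.23, -0.093 and 0.094, of which the first 2 passed. With PE in siSlc25a26 they were 0.17, 0.61, -0.22 and -0.031, of which all but that of Creld2 passed. With siSlc25a26 under PE they were 0.61, 0.25, -0.065 and 0.24, of which those of Hspa5 and Creld2 passed. Over all promoters searched, 21 genes hold the element, of which 16 were tested. Among the 12 of these outside the 10 genes, 6 rose and 3 fell with PE in siNeg, and 5 rose and 2 fell with siSlc25a26 without PE, beside 25.2% and 24.3%, and 23.3% and 21.7%, of all genes. With PE in siSlc25a26 6 of the 12 rose and 3 fell, beside 26.4% and 26% of all genes. With siSlc25a26 under PE 4 rose and 3 fell, beside 20.1% in each direction. The other listed ER genes that carry it are Calr, Canx, Dnajc3, Ero1b and Derl3. Dnajc3, an ER co-chaperone, was 0.42 ± 0.066 higher (adjusted p = 0.00108), Calr, the lectin chaperone calreticulin, 0.24 ± 0.065 higher (adjusted p = 0.0155) and Canx, its membrane-bound relative calnexin, 0.21 ± 0.057 higher (adjusted p = 0.0150) with siSlc25a26 in untreated cells. Ero1b (0.20 ± 0.17; adjusted p = 0.364) and Derl3 (0.13 ± 0.26; adjusted p = 0.717) did not pass. Under PE, Dnajc3 (0.37) and Calr (0.50) were higher with siSlc25a26. Canx (0.17; adjusted p = 0.173), Ero1b (-0.19; adjusted p = 0.400) and Derl3 (-0.27; adjusted p = 0.297) did not pass there. Hyou1, with a pair of ERSE-II matches at its first listed start, fell with PE. Pdia4, whose window holds none of the 3 motifs, also fell. Whether a motif bears on any of these changes was not tested.

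Dividing the count of Hspa5 by that of another gene in the same library removes any scaling of libraries. These ratios are a description, since Hspa5 was singled out after its values were seen. In untreated cells the ratio was above all siNeg libraries in all siSlc25a26 libraries for 8 of the 9 other genes, the exception being Dnajb9. The mean shift ran from 0.21 (Dnajb9) to 0.71 (Sdf2l1) on the log2 scale. Under PE the groups were apart for all 9 genes, with shifts from 0.32 (Dnajb9) to 0.67 (Xbp1). All 9 ratios share the numerator Hspa5, which was itself higher with siSlc25a26. The share of all genes that would part the groups in the same way was not computed. These counts therefore show nothing particular to the other 9 genes. With PE in siNeg the ratio moved both ways, by -0.49 against Hsp90b1 and by 0.56 against Hyou1.

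**Figure D3:**
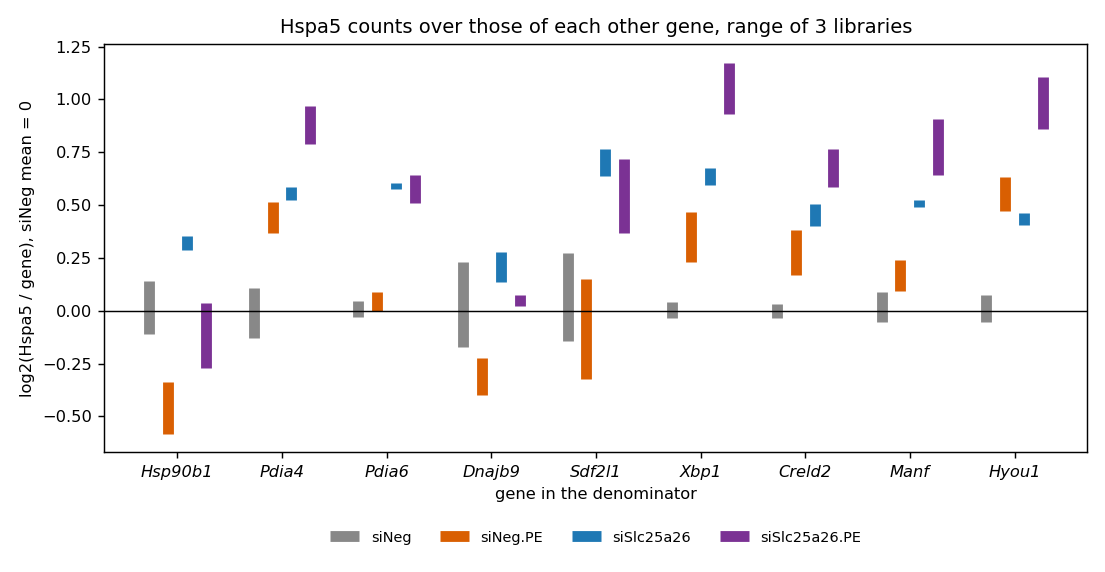
Log2 ratio of the count of Hspa5 to that of each of the 9 other genes in the same library, set to a mean of 0 in siNeg (vertical axis). Each bar spans the lowest to the highest of 3 libraries of a group, and all 9 ratios share the numerator Hspa5. The siSlc25a26 bars lie above the siNeg bars for 8 of 9 genes, and the siNeg.PE bars lie below 0 for Hsp90b1 and Dnajb9 and above it for Pdia4, Xbp1, Creld2, Manf and Hyou1.

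The genes whose pattern over the 12 libraries was most like that of Hspa5 were not among the other 9. Likeness was the root mean square difference of mean-centred log2 CPM, over 6732 genes of sufficient level and spread. Pdia4, Pdia6, Xbp1, Creld2 and Manf did not reach that spread and were not among these genes. The nearest outside the 10 genes were Pafah1b2 (0.055), Scarb2 (0.065), Erap1 (0.068), Nfkb1 (0.069) and Stk24 (0.071). Mean levels of Pafah1b2 were 69.3 CPM in siNeg, 76.3 in siNeg.PE, 104 in siSlc25a26 and 112 in siSlc25a26.PE. Erap1, an ER aminopeptidase that trims peptides, had 51.8, 54.9, 81.7 and 88.1 CPM in the same order. Among the other 9, whatever their spread, Dnajb9 was nearest to Hspa5 (0.20) and Xbp1 farthest (0.38).

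Of the 28 other chaperones and folding enzymes of the ER, 9 rose and 5 fell with PE in siNeg (32.1% and 17.9%, beside 25.2% and 24.3% of all genes). With PE in siSlc25a26 14 rose and 1 fell (50% and 3.57%, beside 26.4% and 26%), though on the FPKM scale these were 9 and 9. Hspa13, an HSP70 relative of the ER membrane, rose by 0.92 ± 0.14 (log2; adjusted p = 0.00133) with PE in siNeg and by 0.64 ± 0.089 (adjusted p = 0.000372) in siSlc25a26. Ero1b, an oxidase that recharges disulfide isomerases, rose by 0.70 ± 0.20 (adjusted p = 0.0189) in siNeg. Dnajc1, a J-domain protein of the ER membrane, rose by 0.69 ± 0.095 (adjusted p = 0.000317) in siSlc25a26. Cdnf, the paralog of Manf, fell by 0.65 (SE 0.13, adjusted p = 0.00387) and by 1.05 (SE 0.091, adjusted p = 1.95e-05). With siSlc25a26 without PE 9 rose and 6 fell (32.1% and 21.4%, beside 23.3% and 21.7%), and under PE 9 rose and 3 fell (32.1% and 10.7%, beside 20.1% in each direction). Hspa13 rose by 0.59 ± 0.11 (adjusted p = 0.00231) without PE, the isomerase gene Pdia5 fell by 0.69 (SE 0.10, adjusted p = 0.000834), and Dnajc3 was 0.37 ± 0.082 higher (adjusted p = 0.00658) under PE. Calr, at 1064 CPM in siNeg.PE and 1516 in siSlc25a26.PE, was 0.50 ± 0.072 higher (adjusted p = 0.000754), and Selenok, a selenoprotein of the ER membrane, 0.35 ± 0.093 higher (adjusted p = 0.0156). Without siSlc25a26 replicate 2 the 9 that rose without PE became 4, and without siNeg.PE replicate 2 the 9 under PE became 4. The 6 that fell without PE became 3 without siSlc25a26 replicate 1, and the 3 under PE became 0 without siNeg.PE replicate 2 or siSlc25a26.PE replicate 2.

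ER-associated degradation, which returns misfolded proteins to the cytosol for destruction, was followed in 23 genes. With PE in siNeg 4 rose and 7 fell (17.4% and 30.4%, beside 25.2% and 24.3% of all genes). With PE in siSlc25a26 6 rose and 3 fell (26.1% and 13.0%, beside 26.4% and 26%), which became 1 and 10 on the FPKM scale. Herpud1, a UPR target that scaffolds the ubiquitin ligase complex, fell most, from 258 to 139 CPM in siNeg (-0.91 ± 0.061, log2; adjusted p = 2.63e-05) and from 298 to 149 CPM in siSlc25a26 (-0.995 ± 0.075; adjusted p = 8.52e-06). Edem3, which trims mannose from misfolded glycoproteins, rose by 0.67 ± 0.18 (adjusted p = 0.0141) and by 0.49 ± 0.11 (adjusted p = 0.00446). Erlec1, an ER lectin, rose by 0.60 ± 0.090 (adjusted p = 0.00115) in siNeg, and Derl3 fell by 0.91 (SE 0.28, adjusted p = 0.0245) in siSlc25a26 at a level of 3.03 CPM or less. With siSlc25a26, 8 rose and 5 fell without PE (34.8% and 21.7%, beside 23.3% and 21.7%), led by the ubiquitin ligase Rnf139 (0.63 ± 0.092; adjusted p = 0.000668), Erlec1 (0.40 ± 0.089; adjusted p = 0.00605) and the conjugating enzyme Ube2g2 (-0.38 ± 0.056; adjusted p = 0.000760). Under PE 7 rose and 3 fell (30.4% and 13.0%, beside 20.1% in each direction), among them Edem3 (-0.44 ± 0.13; adjusted p = 0.0244), Edem2 (0.38 ± 0.074; adjusted p = 0.00354) and Nploc4 (0.36 ± 0.067; adjusted p = 0.00264). Leaving out 1 library lowered the counts to 2 that rose (without siNeg replicate 2) and 4 that fell (without siNeg replicate 1 or any siNeg.PE replicate) for PE in siNeg, to 3 and 2 for PE in siSlc25a26 (without siSlc25a26.PE replicate 2 or siSlc25a26 replicate 1 or 2), to 5 that rose for the siRNA without PE (without siNeg replicate 2 or siSlc25a26 replicate 3), and to 4 (without siNeg.PE replicate 2) and 0 (without siSlc25a26.PE replicate 2) under PE.

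Of 16 sensors and regulators of the UPR, 4 rose and 4 fell with PE in siNeg (25% each, beside 25.2% and 24.3% of all genes). With PE in siSlc25a26 6 rose and 5 fell (37.5% and 31.2%, beside 26.4% and 26%), which became 4 and 8 on the FPKM scale. Ern1, which encodes IRE1, changed by -0.13 ± 0.058 (log2; adjusted p = 0.0932) with PE in siNeg and by -0.19 ± 0.054 (adjusted p = 0.0149) in siSlc25a26, and by 0.18 ± 0.050 (adjusted p = 0.0162) with siSlc25a26 in untreated cells and 0.12 ± 0.063 (adjusted p = 0.175) under PE. Atf6 rose with PE by 0.29 ± 0.070 (adjusted p = 0.00919) and 0.44 ± 0.057 (adjusted p = 0.000221), and did not pass with siSlc25a26 (adjusted p = 0.240 without PE and 0.517 under PE). Eif2ak3, which encodes PERK, had a log2 change of -0.010 ± 0.090 with PE in siNeg (adjusted p = 0.934) and was 0.41 lower (-0.41 ± 0.084; adjusted p = 0.00482) in siSlc25a26.PE than in siNeg.PE. It did not pass with PE in siSlc25a26 (-0.19; adjusted p = 0.0933) or with siSlc25a26 in untreated cells (-0.22; adjusted p = 0.0764). Creb3, a membrane-bound transcription factor, rose with PE by 0.48 ± 0.068 (adjusted p = 0.000866) and 0.83 ± 0.047 (adjusted p = 1.55e-06). Wfs1, the wolframin gene, rose by 0.44 ± 0.076 (adjusted p = 0.00228) and 0.82 ± 0.058 (adjusted p = 5.67e-06), and Stc2 fell by 0.98 (SE 0.13, adjusted p = 0.000548) and 1.12 (SE 0.090, adjusted p = 1.33e-05). With siSlc25a26 8 rose and 3 fell without PE (50% and 18.8%, beside 23.3% and 21.7%), and 7 rose and 3 fell under PE (43.8% and 18.8%, beside 20.1% in each direction). Creb3 was 0.60 ± 0.074 (adjusted p = 0.000311) and Creb3l2 0.55 ± 0.072 (adjusted p = 0.000426) higher under PE. Without PE, Mbtps2 rose by 0.41 ± 0.13 (adjusted p = 0.0332) and Nfe2l1 by 0.32 (adjusted p = 0.000787). Ppp1r15b, a phosphatase subunit that reverses the PERK signal, rose by 0.53 ± 0.057 (adjusted p = 0.000127) and 0.50 ± 0.071 (adjusted p = 0.000696). The 5 that fell with PE in siSlc25a26 became 3 without siSlc25a26.PE replicate 2. The 8 became 4 without siNeg replicate 2 or siSlc25a26 replicate 1, and the 3 that fell became 0 without siSlc25a26 replicate 2 and 1 under PE without siSlc25a26.PE replicate 2.

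The PERK and ATF4 arm, 18 genes that include stress transcription factors and enzymes of amino acid supply, was lower with PE in its median. In siNeg 11 genes fell and 4 rose, and in siSlc25a26 9 fell and 5 rose, with median log2 changes of -0.31 and -0.20. The shares that fell were 61.1% and 50%, beside 24.3% and 26% of all genes, and those that rose 22.2% and 27.8%, beside 25.2% and 26.4%. On the FPKM scale 1 rose and 11 fell in siNeg, and 2 rose and 11 fell in siSlc25a26. Atf4 fell by 0.37 (SE 0.049, adjusted p = 0.000618) and 0.37 (SE 0.050, adjusted p = 0.000289), and Ddit3, which encodes the pro-apoptotic factor CHOP, by 0.67 (SE 0.078, adjusted p = 0.000330) and 0.65 (SE 0.063, adjusted p = 3.83e-05). Phgdh, of serine synthesis, fell by 0.72 (SE 0.077, adjusted p = 0.000227) in siNeg, and Slc7a11, a cystine carrier, rose by 1.00 ± 0.28 (adjusted p = 0.0176). With PE in siSlc25a26 Chac1 fell by 0.76 (SE 0.087, adjusted p = 0.000110) and Atf5 by 0.73 (SE 0.056, adjusted p = 9.8e-06), and Atf3 rose by 0.75 ± 0.078 (adjusted p = 6.37e-05). With siSlc25a26 4 rose and 6 fell without PE (22.2% and 33.3%, beside 23.3% and 21.7%), and 5 rose and 5 fell under PE (27.8% each, beside 20.1%). Here Ddit3 was higher, at 76.2 against 45.0 CPM without PE (0.74 ± 0.055; adjusted p = 1.18e-05) and 48.3 against 28.4 CPM under PE (0.76 ± 0.080; adjusted p = 0.000131). Atf3, an early stress factor, rose by 1.33 ± 0.084 (adjusted p = 3.76e-06) and 1.67 ± 0.14 (adjusted p = 2.61e-05), whereas Atf4 changed by 0.13 ± 0.048 (adjusted p = 0.0506) and 0.12 ± 0.057 (adjusted p = 0.117). Phgdh fell by 0.58 (SE 0.078, adjusted p = 0.000456) without PE, and Slc7a11 by 0.62 (SE 0.22, adjusted p = 0.0469) under PE. The 4 that rose with PE in siNeg became 1 without siNeg replicate 2, and the 5 that fell under PE became 3 without siNeg.PE replicate 2 or 3 or siSlc25a26.PE replicate 2 or 3.

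Of 23 genes of ER translocation and signal peptide processing, 7 rose and 2 fell with PE in siNeg (30.4% and 8.70%, beside 25.2% and 24.3% of all genes). In siSlc25a26 12 rose and 1 fell (52.2% and 4.35%, beside 26.4% and 26%), which became 5 and 7 on the FPKM scale. Srp54a, of the signal recognition particle, rose by 1.01 ± 0.20 (log2; adjusted p = 0.00373) in siNeg, and Ssr1, of the translocon-associated complex, by 0.76 ± 0.060 (adjusted p = 1.15e-05) in siSlc25a26. Spcs3, of the signal peptidase, rose by 0.74 (adjusted p = 0.0157) and 0.85 (adjusted p = 0.00556), Sec62 by 0.66 (adjusted p = 0.00687) in siNeg and Srp54a by 0.72 (adjusted p = 0.000781) in siSlc25a26. With siSlc25a26 4 rose and 5 fell without PE (17.4% and 21.7%, beside 23.3% and 21.7%) and 4 rose and 2 fell under PE (17.4% and 8.70%, beside 20.1% each), with Sec61b lower (-0.70 ± 0.071; adjusted p = 8.48e-05) and Ssr3 higher (0.60 ± 0.077; adjusted p = 0.000328) without PE, where Sec11c rose by 0.54 (adjusted p = 0.000170). Under PE Sec61b fell by 0.37 (adjusted p = 0.00423), and Ssr1 rose by 0.41 (adjusted p = 0.00131) and Ssr3 by 0.50 (adjusted p = 0.000368). Of 20 genes of COPII export and retrieval, none rose and 7 fell with PE in siNeg (0% and 35%, beside 25.2% and 24.3%), led by Sec31a (-0.45 ± 0.066; adjusted p = 0.00105), a coat subunit, Kdelr1 (-0.42; adjusted p = 0.000301) and Sec16a (-0.35; adjusted p = 0.00248). In siSlc25a26 12 rose and 1 fell (60% and 5%, beside 26.4% and 26%), but on the FPKM scale 4 rose and 5 fell. Preb, which activates the coat's GTPase, rose by 0.69 ± 0.054 (adjusted p = 1.01e-05), Sec23b by 0.38 (adjusted p = 0.000471) and Tmed10 by 0.36 (adjusted p = 0.00169). The difference between the PE effects passed for 9 of the 20, all higher (45%, beside 5.48% of all genes; 3 on the FPKM scale, and 3 without siSlc25a26.PE replicate 2). Surf4, a cargo receptor, was 0.99 lower (-0.99 ± 0.051; adjusted p = 9.37e-07) with siSlc25a26 without PE, where 3 rose and 4 fell (15% and 20%, beside 23.3% and 21.7%), and 0.70 lower (-0.70 ± 0.062; adjusted p = 4.64e-05) under PE, where 12 rose and 1 fell (60% and 5%, beside 20.1% each; 7 and 1 on the FPKM scale). Mcfd2, of another cargo receptor, rose by 0.64 ± 0.059 (adjusted p = 4.67e-05) and 0.89 ± 0.067 (adjusted p = 1.55e-05). Kdelr3 fell by 0.40 (adjusted p = 0.00156) without PE and Sec23b rose by 0.51 (adjusted p = 0.000771) under PE. The 12 that rose became 7 without siSlc25a26.PE replicate 2 in both comparisons, and also without siNeg.PE replicate 2 under PE, and the 2 that fell in the translocation list with PE in siNeg became 0 without siNeg replicate 1 or 2 or siNeg.PE replicate 2 or 3. The 2 translocation genes that fell under PE became 1 without siNeg.PE replicate 1 or 2 or siSlc25a26.PE replicate 1 or 2. The 7 of the export list that fell became 4 without siNeg replicate 1 or siNeg.PE replicate 2.

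Of 17 chaperones of cytosol and mitochondria, 10 rose and 2 fell with PE in siNeg (58.8% and 11.8%, beside 25.2% and 24.3% of all genes). In siSlc25a26 12 rose and 1 fell (70.6% and 5.88%, beside 26.4% and 26%), which became 7 and 3 on the FPKM scale. Hsp90aa1, the inducible cytosolic HSP90, rose from 145 to 302 CPM in siNeg (1.04 ± 0.18, log2; adjusted p = 0.00231), Cryab, a small heat shock protein of muscle, from 876 to 1717 CPM (0.96 ± 0.080; adjusted p = 6.78e-05) and Hspa4 from 138 to 243 CPM (0.80 ± 0.079; adjusted p = 0.000151). Hspb1, another small heat shock protein, rose 2.14-fold (adjusted p = 6.5e-07) with PE in siSlc25a26, where Cryab rose by 1.01 ± 0.051 (adjusted p = 8.19e-07) and Hspa4 by 0.63 ± 0.085 (adjusted p = 0.000304). With siSlc25a26 6 rose and 3 fell both without PE and under PE (35.3% and 17.6%, beside 23.3% and 21.7%, and beside 20.1% each), the latter becoming 5 and 5 on the FPKM scale. Hspa1a, an inducible HSP70, had 3.19, 3.66 and 4.09 CPM in siNeg and 0.511, 0 and 2.05 in siSlc25a26, and 2.67, 3.15 and 4.71 in siNeg.PE and 0.585, 0.596 and 1.12 in siSlc25a26.PE. It fell by 2.13 (SE 0.73, adjusted p = 0.0397) and 2.19 (SE 0.32, adjusted p = 0.000790), but its counts were not whole where above 0, so its reads may be shared with other loci and its levels are uncertain. Cryab rose by 0.56 ± 0.058 (adjusted p = 9.35e-05) and 0.60 ± 0.089 (adjusted p = 0.000854), Hsp90aa1 by 0.60 ± 0.17 (adjusted p = 0.0214) without PE and Hspb1 by 0.95 ± 0.10 (adjusted p = 0.000175) under PE. The 12 became 8 without siSlc25a26 replicate 1.

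**Figure D4:**
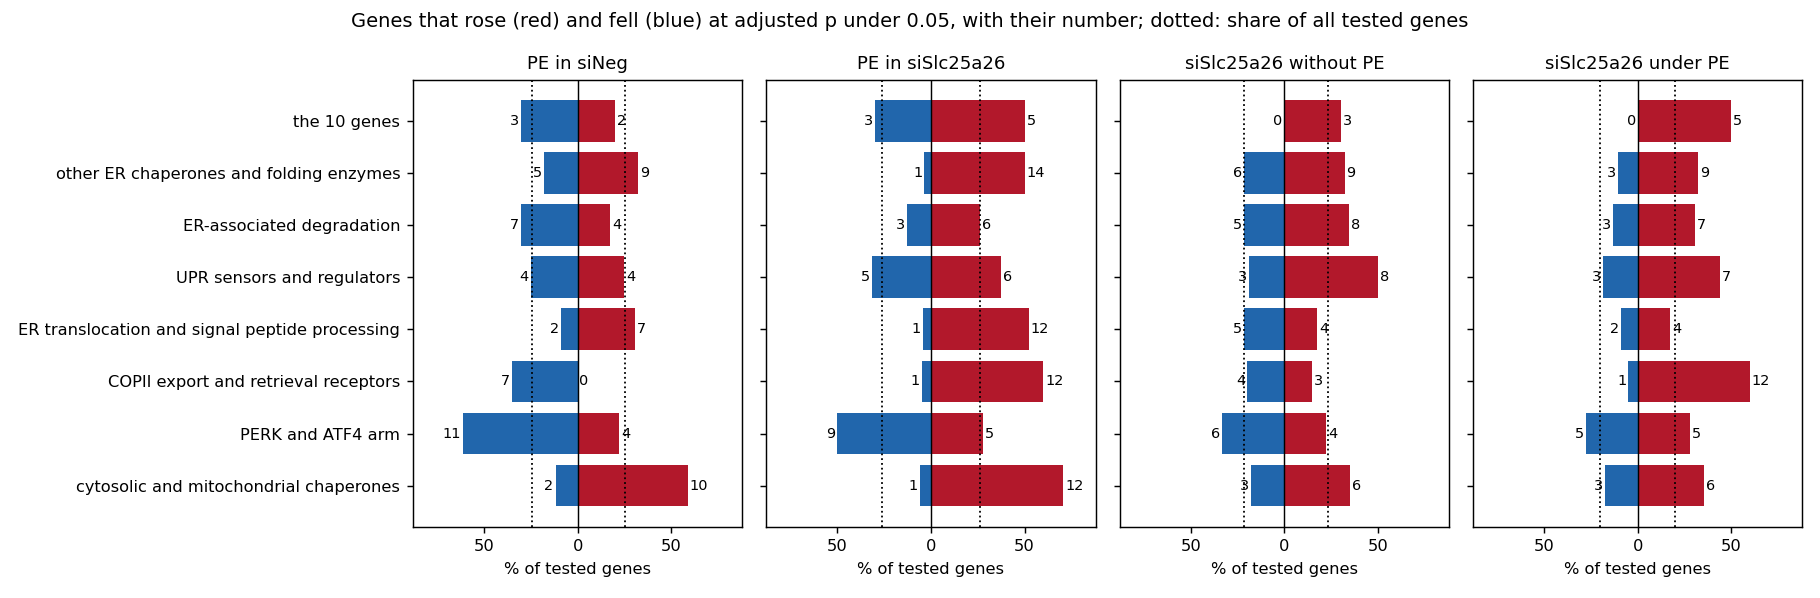
Share of the tested genes of each list that rose (red, right) or fell (blue, left) at an adjusted p under 0.05, in percent, with the number of genes at each bar, for the 4 comparisons. Dotted lines are the shares of all tested genes. The PERK and ATF4 arm has 11 and 9 genes that fell with PE. On the FPKM scale the bars of PE in siSlc25a26 shift, for COPII export from 12 and 1 to 4 and 5.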

How the data were processed

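RNA of 12 NRVM libraries, 3 for each of 4 groups, was sequenced by the study. The authors deposited estimated counts per gene, of which 20.8% to 21.9% per library were not whole, and FPKM values made from the same libraries. Per the submitters' processing notes, HISAT, Bowtie2 and the build Rnor_6.0 were used. The program that counted reads and its use of strand are not given in the sources used here, so reads of overlapping or near-identical genes may be split. Estimated counts were rounded to whole numbers, scaled by TMM, filtered with filterByExpr and tested in edgeR 4.0.16 (R 4.3.3) by the quasi-likelihood test with Benjamini-Hochberg adjustment. The threshold was an adjusted p of 0.05, and a fold change of 1.5 for calls. Each comparison of 2 groups used its 6 libraries, and the difference between PE effects used all 12. Standard errors were taken from the F statistic, and intervals are at 95%. CPM were scaled over all 12 libraries. FPKM served to order genes and, as log2(FPKM + 1) and log2(FPKM + 0.1) in limma 3.58.1, as an alternative. DESeq2 1.42.0, limma-voom, other filters, DESeq2 size factors, a fit to all 12 libraries, a block by replicate number and leaving out each library were the other alternatives. The labels do not say that libraries of a group came from separate cultures, and the paper describes independent biological replicates for libraries with an siRNA against Nap1l5, so p-values measure the spread between these libraries, which may be technical. Libraries of a group differed beyond counting noise, and none was counted as a repeat of another. Of 18469 gene IDs, 16962 matched RefSeq's gene table of assembly GRCr8, which served for names and promoters only. The tests across genes were also run on simulated counts with known changes. The simulation gave every gene the same spread beyond counting noise, so it does not show how the tests perform on these libraries.

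Beside the 10 genes, the text names in each pathway list and comparison up to 3 genes with the highest absolute log2 change among those that passed and had 10 or more counts in each library of the group with the higher level. Ern1, Eif2ak3, Atf6, Ddit3 and Atf4, the label checks Slc25a26, Nppa and Nppb, and the 5 genes nearest to Hspa5 are also named. The latter had a mean of at least 10 CPM and an SD of at least that of Hspa5 divided by 2. Nap1l5, and the listed ER genes that carry the ERSE, were named after their values were seen. The 10 genes and all lists were chosen with earlier results of these data known. Protein sequences were not used here.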

Additional observations from a re-analysis of the deposited data

Results flagged for a closer look

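The difference between the PE effects with siSlc25a26 and with siNeg passed for Slc25a26, for 21 genes of the pathway lists and for 14 marker genes of other cell types and cardiomyocytes (edgeR's quasi-likelihood test over 12 libraries, Benjamini-Hochberg adjustment), and for none of the 10 genes. Given here are Slc25a26 and the 15 pathway genes with up to 3 in each list. The targeted gene Slc25a26 had a difference of 1.06 on the log2 scale (adjusted p = 0.000466), in the direction of a higher PE effect with its own siRNA. Of the ER folding genes, Ppib differed by 0.25 (adjusted p = 0.0402) and Fkbp14 by 0.34 (adjusted p = 0.0241). Of the UPR regulators, Creb3 differed by 0.33 (adjusted p = 0.0278), Creb3l2 by 0.68 (adjusted p = 0.000903) and Wfs1 by 0.36 (adjusted p = 0.0279). In translocation and signal peptide processing, Sec61a1 differed by 0.25 (adjusted p = 0.0390), Ssr1 by 0.32 (adjusted p = 0.0128) and Sec11c by -0.45 (adjusted p = 0.00652). In export and retrieval, Sec31a differed by 0.42 (adjusted p = 0.00742), Preb by 0.43 (adjusted p = 0.0308) and Kdelr3 by 0.40 (adjusted p = 0.0280). The other 6 genes that passed, all in export and retrieval, differed by 0.27 to 0.36 and are Sec24a, Kdelr2, Sec23b, Sec16a, Kdelr1 and Surf4. In the PERK and ATF4 arm, Psat1 differed by -0.36 (adjusted p = 0.0109) and Vldlr by 0.40 (adjusted p = 0.0369). Of the cytosolic chaperones, Hspb1 differed by 0.63 (adjusted p = 0.00819) and Bag3 by 0.32 (adjusted p = 0.0255). Leaving out 1 library moved the number of genes with a positive difference. For ER folding the 2 became 0 without siNeg replicate 2, siNeg.PE replicate 3, siSlc25a26.PE replicate 2 or siSlc25a26 replicate 1, and at most 4. The range was 1 to 4 for UPR regulators, 1 to 5 for translocation and 3 to 9 for export and retrieval. It was 0 to 2 in the PERK and ATF4 arm and 1 to 2 for cytosolic chaperones.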

How the results depend on the processing

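Of 800 values of single genes under the alternatives, 730 kept their direction and side of the threshold, 52 no longer passed and 16 newly passed. The other 2 reversed, the change of Hspa5 with PE in siSlc25a26, which was -0.0075 on log2(FPKM) with either pseudocount. Many of the 800 values had no call to lose. In the main fit 5 of the 10 genes did not pass with PE in siNeg and 2 with PE in siSlc25a26. With siSlc25a26, 7 did not pass without PE and 5 under PE, and for the difference between PE effects all 10 did not. The 730 are therefore no measure of how stable the calls were. Without the fold threshold, 2 of the 10 genes were called higher and 3 lower with PE in siNeg, 5 and 3 with PE in siSlc25a26, 3 higher with siSlc25a26 without PE and 5 under PE. On the FPKM scale, with pseudocounts of 1 and 0.1, the genes called higher were 0 and 0 with PE in siNeg, 0 and 0 with PE in siSlc25a26, 1 and 1 with siSlc25a26 without PE, and 0 and 0 under PE. Leaving out 1 library gave 0 to 1 for both PE comparisons and for the siRNA under PE. The median of all genes with PE in siSlc25a26 was -0.13 and -0.17 on the FPKM scale, and of the difference between PE effects -0.11 and -0.14. There, the 1389 genes called higher and 1436 lower became 564 and 1497, or 824 and 2214, and the 305 and 471 of the difference became 164 and 538, or 218 and 768. With a pseudocount of 1, calls over all genes went from 1708 and 1130 to 857 and 733 (PE in siNeg), from 1233 and 996 to 832 and 452 (siSlc25a26 without PE) and from 1054 and 1108 to 623 and 756 (under PE). The cause was not tested. Same-numbered libraries were not shown to be paired, as correlations of their deviations ran from -0.11 to 0.36, and 4, 0, 3 and 4 of 6 libraries correlated best with their own number, a hint from the data and not from the design. With the replicate number as a block, 4 of the 10 genes rose and 4 fell with PE in siNeg, 4 and 3 with PE in siSlc25a26, 3 and 0 with siSlc25a26 without PE and 6 and 0 under PE. The block changed no count of genes past both thresholds among the 10, and the 471 genes called lower in the difference became 619. The lowest count of any of the 10 genes was 558, while Derl3 was at 3.03 CPM or less.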
